A study of Mus musculus with 4 samples.

Results

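Cytochrome P450 families 1 to 3 were followed through the RNAs of 52 mouse genes in fractions of liver mitochondria. The members were all protein-coding features whose symbol is Cyp, then 1, 2 or 3, then a single lower-case letter and digits, such as Cyp2a5, Cyp2f2 and Cyp3a11. They were 52 of 37819 features in the table and fell into 16 subfamilies (named by the letter) on 8 chromosomes, and the rule read symbols, not measured values. RNA came from 4 libraries, 1 per group, all from mice of postnatal week 7 whose strain is labelled C57BL/6J. The ob group had the genotype B6.Cg-Lepob/J, which carries a mutation of leptin, the satiety hormone of fat cells. The NASH group was labelled wild type-NASH, that is, mice without a named mutation but with non-alcoholic steatohepatitis, and the sources used here do not say what brought about that state. The db group had the genotype BKS.Cg-Dock7m+/+Leprdb/J, which carries a mutation of the leptin receptor and names a BKS background that its strain label does not. The wild-type group carried no named mutation or treatment. The labels give neither the sex nor the number of animals behind a library, and the sources do not say how the mitochondria were isolated.

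P450 enzymes are heme proteins that add an oxygen atom to their substrates. Most sit in the endoplasmic reticulum membrane and take electrons from NADPH-cytochrome P450 reductase, and families 1 to 3 act on drugs, pollutants, steroids, bile acids and fatty acids. In liver they are made mainly by hepatocytes, many of them around the central vein, and many genes lie in clusters of close copies that arose by duplication.

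Close copies limit what a count of reads can say about a single gene, and the Cyp2a genes serve here as an example. The coding sequences of Cyp2a4 and Cyp2a5 were 98.4% identical and differed at 23 of 1482 aligned bases, and those of Cyp2a12 and Cyp2a22 were 97% identical. A stretch of 90 bases, coding positions 580 to 669, is shown because it tells the pairs apart. Capitals mark bases that differ from Cyp2a5, and in Cyp2a5 itself the bases at which Cyp2a4 differs.
Cyp2a5: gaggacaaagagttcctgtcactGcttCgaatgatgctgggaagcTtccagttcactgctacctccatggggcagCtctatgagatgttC
Cyp2a4: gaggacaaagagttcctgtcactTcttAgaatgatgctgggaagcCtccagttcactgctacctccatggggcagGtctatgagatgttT
Cyp2a22: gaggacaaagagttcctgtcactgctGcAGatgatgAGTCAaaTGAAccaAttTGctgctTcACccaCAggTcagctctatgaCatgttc
Cyp2a12: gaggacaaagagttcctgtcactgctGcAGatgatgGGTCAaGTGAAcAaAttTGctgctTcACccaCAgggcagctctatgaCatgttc
In this stretch Cyp2a4 differed from Cyp2a5 at 5 bases, Cyp2a22 at 22 and Cyp2a12 at 23. The sequences are from the mm10 transcripts of GENCODE M21, and all 4 genes lie on chromosome 7.

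The stretches of 250 bases before the RefSeq start sites (GRCm38.p6) of 3 members that the results turn on are shown next, with matches to the motifs searched in capitals. The promoter of Cyp2a5 is at chr7:26835089-26835338 on the plus strand, that of Cyp2a4 at chr7:26306942-26307191 on the plus strand and that of Cyp3a11 at chr5:145879855-145880104 on the minus strand.
Cyp2a5: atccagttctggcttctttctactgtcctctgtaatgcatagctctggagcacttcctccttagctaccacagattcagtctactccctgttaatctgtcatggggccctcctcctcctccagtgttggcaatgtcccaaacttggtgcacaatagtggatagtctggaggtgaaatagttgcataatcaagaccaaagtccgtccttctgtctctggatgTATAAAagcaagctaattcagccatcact
Cyp2a4: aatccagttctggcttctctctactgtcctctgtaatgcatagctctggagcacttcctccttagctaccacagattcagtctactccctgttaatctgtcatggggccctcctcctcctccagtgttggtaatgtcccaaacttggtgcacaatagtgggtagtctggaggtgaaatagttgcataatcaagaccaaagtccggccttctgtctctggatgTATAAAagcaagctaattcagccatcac
Cyp3a11: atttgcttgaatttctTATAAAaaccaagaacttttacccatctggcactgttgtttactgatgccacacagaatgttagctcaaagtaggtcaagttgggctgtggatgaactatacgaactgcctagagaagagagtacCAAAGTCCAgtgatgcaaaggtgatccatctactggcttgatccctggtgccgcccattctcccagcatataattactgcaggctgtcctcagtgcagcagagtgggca
The promoters of Cyp2a4 and Cyp2a5 were as alike as their coding sequences, with 4 differences in 249 aligned bases (98.4% identical). In both, the capitals mark the letters TATAAA close to the start site, as in a TATA box. In Cyp3a11 they mark CAAAGTCCA, to which the hepatocyte factor HNF4A binds, and the letters TATAAA near the far end of the stretch, away from the start site.

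Library totals were 1000306 counts in ob, 529815 in NASH, 1005915 in db and 627890 in wild-type. Features with 10 or more counts numbered 4744 in ob, 1238 in NASH, 2895 in db and 1368 in wild-type. Levels are given in CPM, counts per 1000000 of a library after TMM scaling, and 3 counts, taken as the detection floor, came to 1.99 CPM in ob, 6.15 in NASH, 2.84 in db and 6.95 in wild-type. Each group had a single library, so differences could be neither checked on replicates nor tested. Ratios compare single libraries, and the parentheses behind them hold exact 95% intervals for counting error alone. Markers of hepatocytes were present in every library, with albumin (Alb) at 42417 counts in ob, 2225 in NASH, 102012 in db and 16453 in wild-type. The ob library stood apart by nuclear RNAs, with 7450 counts of Neat1, against 5 in NASH, 109 in db and 7 in wild-type. Plain library totals in place of TMM multiplied every ratio of ob to wild-type by 2.19, of NASH to wild-type by 1.34, of db to wild-type by 1.53 and of db to ob by 0.698. An ob level below wild-type by less than that factor therefore lies above wild-type under plain totals.

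P450 RNA was most abundant in db and scarcest in NASH. The 52 members together had 14027 counts in ob, 509 in NASH, 21784 in db and 3320 in wild-type. As a share of all counts this was 1.4% in ob (1.38 to 1.43), 0.0961% in NASH (0.0879 to 0.105), 2.17% in db (2.14 to 2.19) and 0.529% in wild-type (0.511 to 0.547). The NASH share lay below, and the db share above, each of the other 3. Most of each library was taken by a few very abundant features, so the share of protein-coding counts outside them is of use too. On that basis the members held 4.62% in ob (4.54 to 4.69), 0.892% in NASH (0.817 to 0.973), 5.73% in db (5.66 to 5.8) and 2.74% in wild-type (2.65 to 2.83), in the same order. The summed scaled level was 9316 CPM in ob, 1044 in NASH, 20622 in db and 7695 in wild-type. Relative to wild-type it was 1.21-fold higher in ob (1.17 to 1.26), 7.37-fold lower in NASH (6.71 to 8.11) and 2.68-fold higher in db (2.58 to 2.78). The db level was also 2.21-fold above that of ob (2.17 to 2.26). Over 5 scalings, the ratio to wild-type lay between 1.08 and 2.65 in ob, 0.136 and 0.182 in NASH and 2.41 and 4.1 in db. The RNA came from mitochondrial fractions of liver tissue. The number of hepatocytes, the P450 RNA per hepatocyte and the non-mitochondrial RNA in each fraction cannot be told apart.

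Of the 52 members 35 reached 10 counts in at least 1 library, and 32 of these reached 30. Counts were seen for 40 members in ob, 36 in NASH, 41 in db and 36 in wild-type. Among the 32 members with at least 30 counts, the TMM-scaled level was lowest in NASH for 32 of 32. Cyp2a5 was lowest in wild-type under each of the 4 other scalings. Cyp2a4 (1 NASH count against 2 in wild-type), Cyp2b10 (0 against 2) and Cyp2d40 (1 against 3) were at or below the floor in both. Their order is thus not resolved. For Cyp2a22 and Cyp3a59 the interval of the NASH ratio to wild-type included 1 (0.0229 to 1.11 and 0.151 to 1.17). The level was highest in db for 29 of the 32. Of these, Cyp2d22, Cyp2f2 and Cyp2j6 were highest in ob under plain totals. Cyp2f2 was highest in wild-type when the most abundant features were left out of the scaling. Cyp2a4 and Cyp3a25 were highest in ob, but in db with DESeq2 size factors, and Cyp2c70 was highest in wild-type, but in db under plain totals and the submitters' scaling.

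**Figure D1:**
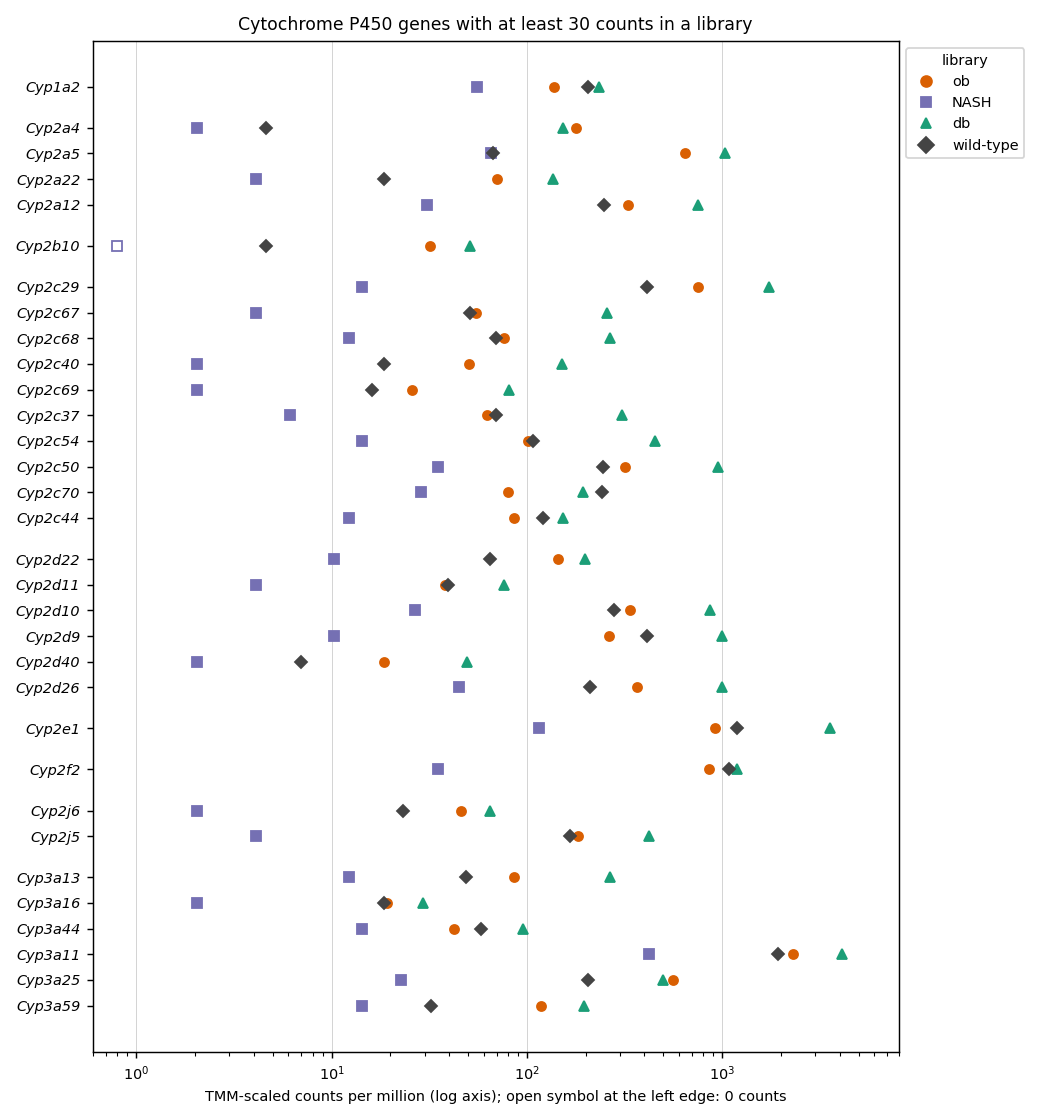
Scaled level (CPM, log axis) of the 32 P450 genes with at least 30 counts in a library, 1 row per gene, 1 symbol per library and no replicates. With this scaling the NASH squares are the leftmost symbols in all 32 rows, Cyp2a5 by a margin that other scalings turn round, and the db triangles are the rightmost in 29, for Cyp2d22, Cyp2f2 and Cyp2j6 not under plain totals.

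The make-up of the P450 RNA pool differed between the libraries as well, and these shares do not depend on how libraries are scaled. The Cyp3a subfamily was the largest in every library, with 33.7% of P450 counts in ob (32.9 to 34.5), 47% in NASH (42.5 to 51.4), 25.3% in db (24.7 to 25.9) and 29.7% in wild-type (28.2 to 31.3). Cyp3a therefore took a larger share of a much smaller pool in NASH, and a smaller share of a larger pool in db. The Cyp2a subfamily made up 13.1% in ob (12.6 to 13.7), 9.82% in NASH (7.38 to 12.7), 10.1% in db (9.66 to 10.5) and 4.4% in wild-type (3.73 to 5.15). All 3 models thus held a larger Cyp2a share than wild-type. Cyp2f2, the only Cyp2f gene, went the other way, with 9.16% in ob (8.69 to 9.65), 3.34% in NASH (1.96 to 5.29), 5.8% in db (5.5 to 6.12) and 14.1% in wild-type (12.9 to 15.3). Cyp2c took 17.3% in ob, 13% in NASH, 22.2% in db and 17.6% in wild-type. Cyp1a took 1.51% in ob (1.32 to 1.73), 5.5% in NASH (3.69 to 7.85), 1.17% in db (1.03 to 1.32) and 2.74% in wild-type (2.21 to 3.35), and was the other subfamily, beside Cyp2a and Cyp3a, whose share was larger in NASH than in wild-type with intervals that did not overlap.

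**Figure D2:**
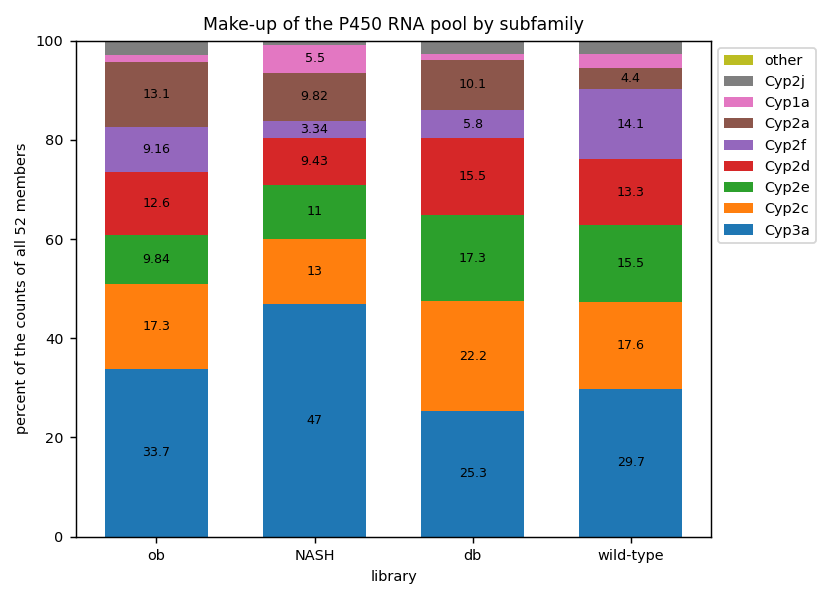
Percent of all counts of the 52 members held by each subfamily, 1 stacked bar per library, with shares of 3% or more printed in the segment. The Cyp3a segment is the largest in every bar, and the Cyp2a segment is smallest and the Cyp2f segment largest in the wild-type bar.

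In the 8 subfamilies drawn in the plot by subfamily, the NASH library was below wild-type by unequal amounts. Cyp3a stood at 0.214 of its wild-type level in NASH (0.185 to 0.247), Cyp1a at 0.272 (0.172 to 0.42) and Cyp2a at 0.303 (0.215 to 0.42). Cyp2c stood at 0.1 (0.0763 to 0.129), Cyp2d at 0.0965 (0.0701 to 0.13), Cyp2f at 0.0322 (0.0186 to 0.0521) and Cyp2j at 0.0324 (0.00654 to 0.098). The NASH intervals of Cyp3a, Cyp1a and Cyp2a lay above those of Cyp2c, Cyp2d, Cyp2e, Cyp2f and Cyp2j. In db, Cyp2a was 6.13-fold above wild-type (5.18 to 7.29), Cyp2c 3.38-fold (3.1 to 3.69), Cyp2d 3.14-fold (2.84 to 3.48) and Cyp3a 2.28-fold (2.13 to 2.44). Cyp1a and Cyp2f were close to wild-type in db, with ratios of 1.14 (0.894 to 1.47) and 1.11 (0.993 to 1.23), of which the second was 0.994 when the most abundant features were left out of the scaling. In ob, Cyp2a was 3.61-fold above wild-type (3.05 to 4.3) and the other subfamilies drawn in the plot by subfamily were between 0.668 for Cyp1a (0.52 to 0.863) and 1.37 for Cyp3a (1.28 to 1.47). The ob ratios below 1, those of Cyp1a, Cyp2e and Cyp2f, turned to 1.46, 1.69 and 1.73 under plain totals.

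**Figure D3:**
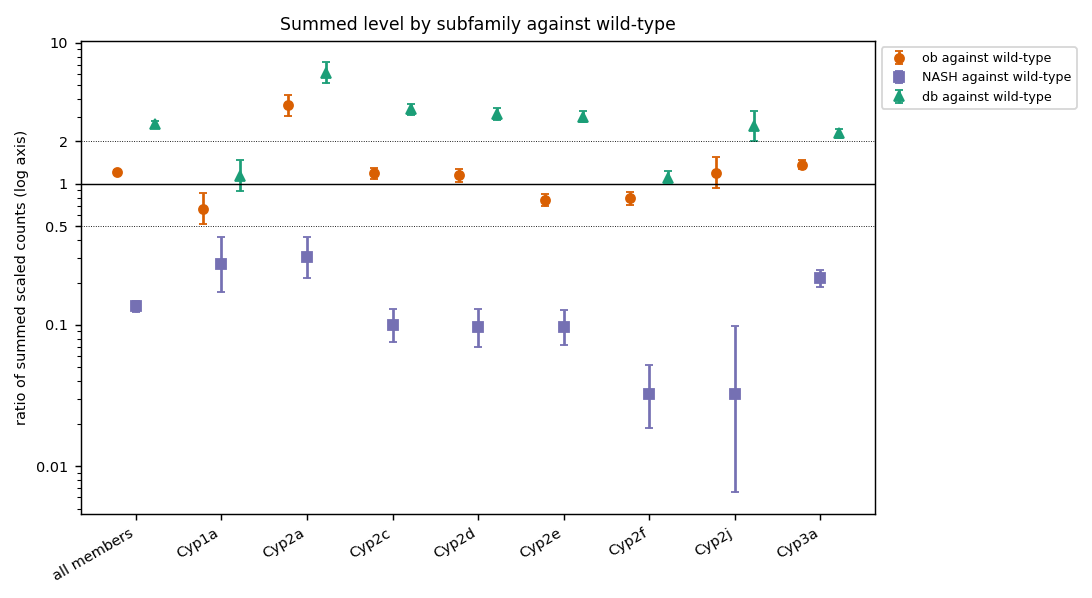
Ratio of summed scaled counts to wild-type (log axis) for all members and 8 subfamilies in ob, NASH and db, where bars are exact 95% intervals for counting error in 1 library per group and dotted lines mark 2-fold. The NASH squares lie below 1 throughout, with Cyp1a, Cyp2a and Cyp3a highest among the subfamilies drawn. In ob and in db, Cyp2a is the highest subfamily drawn. Cyp2b, with 2 counts in wild-type, is not drawn and had higher ratios, 6.88 in ob and 11.4 in db.

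In the Cyp1 family only Cyp1a2 had more than a few counts. Cyp1a2 (ENSMUSG00000032310, mm10 chromosome 9, 57676937 to 57683655, minus strand) oxidises caffeine and aromatic amines and is induced through the aryl hydrocarbon receptor. It stood at 138 CPM in ob, 55.4 in NASH, 235 in db and 206 in wild-type. It was thus lowest in NASH, at 0.268 of wild-type (0.168 to 0.417), while db did not differ from wild-type beyond counting error (1.14, 0.89 to 1.47). In ob it stood at 0.67 of wild-type (0.52 to 0.868), and above it under plain totals. Cyp1a1, its inducible neighbour in the family, had 4 counts in ob, 1 in NASH, 6 in db and 2 in wild-type. Cyp1b1, best known outside hepatocytes, had 0, 1, 0 and 0 counts in the same order.

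Cyp2a4 and Cyp2a5 had the highest ratios to wild-type in ob and db among the members with at least 30 counts. Cyp2a5 (ENSMUSG00000005547, chromosome 7, 26835305 to 26843548, plus strand) encodes the coumarin hydroxylase of mouse liver. It had 968 counts in ob, 32 in NASH, 1088 in db and 29 in wild-type, or 643, 65.6, 1030 and 67.2 CPM in the same order. The level was thus high in both leptin-pathway models and alike in NASH and wild-type. Relative to wild-type it was 9.57-fold higher in ob (6.62 to 14.4) and 15.3-fold higher in db (10.6 to 23), and in NASH the ratio was 0.976 (0.572 to 1.67), which lay on either side of 1 depending on the scaling. As a share of the P450 pool, Cyp2a5 held 6.9% in ob (6.49 to 7.33), 6.29% in NASH (4.34 to 8.76), 4.99% in db (4.71 to 5.29) and 0.873% in wild-type (0.586 to 1.25). In that measure all 3 models stood above wild-type, NASH included, since the rest of the pool was smaller there.

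Cyp2a4, a testosterone hydroxylase known to be higher in female than in male mouse liver, had 269 counts in ob, 1 in NASH, 163 in db and 2 in wild-type. It was 38.5-fold higher in ob (10.6 to 320) and 33.3-fold higher in db (9.07 to 277), with wide intervals because of the 2 wild-type counts. Because Cyp2a4 and Cyp2a5 are near-identical, their sum is the safer measure. Together they had 1237 counts in ob, 33 in NASH, 1251 in db and 31 in wild-type, and their summed level was 11.4-fold higher in ob (8.01 to 16.9) and 16.5-fold higher in db (11.6 to 24.4). In NASH the sum did not differ from wild-type beyond counting error, with a ratio of 0.942 (0.559 to 1.59). Between db and ob, Cyp2a5 was 1.6-fold higher in db (1.47 to 1.75), whereas Cyp2a4 had a ratio of 0.864 (0.707 to 1.05), so the balance between the copies shifted toward Cyp2a5 in db, as far as the authors' counting could split them. Without Cyp2a4 and Cyp2a5 the remaining members summed to 1.11 times wild-type in ob (1.07 to 1.16), 0.128 in NASH (0.116 to 0.141) and 2.55 in db (2.46 to 2.65).

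The other Cyp2a genes, Cyp2a22 and Cyp2a12, had smaller ratios in ob and db, and in NASH lay further below wild-type than Cyp2a5. Cyp2a22 had 106 counts in ob, 2 in NASH, 144 in db and 8 in wild-type, and was 3.8-fold higher in ob (1.86 to 9.02) and 7.35-fold higher in db (3.63 to 17.4). Cyp2a12, a hydroxylase of steroids and bile acids, stood at 329 CPM in ob, 30.8 in NASH, 753 in db and 248 in wild-type. It was 1.33-fold higher in ob (1.08 to 1.65), 8.06-fold lower in NASH (4.68 to 14.9) and 3.03-fold higher in db (2.48 to 3.75).

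From Cyp2a4 onward, the ratios to wild-type declined along the chromosome 7 cluster, a stretch singled out after the values were seen. In the order Cyp2a4, Cyp2a5, Cyp2a22, Cyp2a12 and Cyp2f2, the ratio to wild-type was 38.5, 9.57, 3.8, 1.33 and 0.789 in ob, and 33.3, 15.3, 7.35, 3.03 and 1.11 in db. In NASH it was 0.976, 0.221, 0.124 and 0.0322 from Cyp2a5 onward, with Cyp2a4 at 1 count against 2. Intervals of several neighbours overlapped, such as Cyp2a22 and Cyp2a12 in db, and Cyp2a5 and Cyp2a22 in NASH. The 3 series share the wild-type library, so they are not separate pieces of evidence for the gradient. Cyp2b10, which lies before Cyp2a4 in the cluster and is the textbook target of the constitutive androstane receptor, had 48 counts in ob, 0 in NASH, 54 in db and 2 in wild-type. It was 6.88-fold higher in ob (1.8 to 58.4) and 11-fold higher in db (2.91 to 93.4), below Cyp2a4 in both, so the decline did not start at the end of the cluster. Cyp2b23, Cyp2b19 and Cyp2g1, between Cyp2a4 and Cyp2a5, and Cyp2t4, beyond Cyp2f2, had at most 2 counts in any library.

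**Figure D4:**
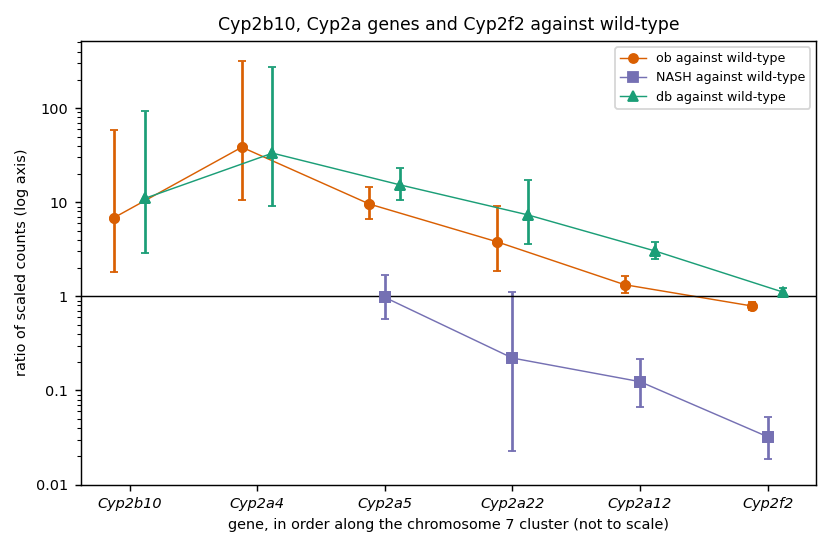
Ratio of scaled counts to wild-type (log axis) of Cyp2b10, the Cyp2a genes and Cyp2f2 in their order along the chromosome 7 cluster, for ob, NASH and db, with bars for the exact 95% intervals for counting error. Cyp2b10 lies below Cyp2a4, and ratios decline from Cyp2a4 to Cyp2f2 in ob and db and from Cyp2a5 to Cyp2f2 in NASH, where Cyp2b10 and Cyp2a4 are left out for lack of counts.

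The Cyp2c genes of chromosome 19 with at least 30 counts in a library were lower in NASH and, but for Cyp2c70 and Cyp2c44, at least 3-fold higher in db. Cyp2c29 (ENSMUSG00000003053, 39269405 to 39330713, plus strand), an abundant enzyme inducible by phenobarbital, stood at 753 CPM in ob, 14.4 in NASH, 1746 in db and 413 in wild-type. The db level was 4.23-fold above wild-type (3.63 to 4.96), the ob level 1.83-fold above it (1.56 to 2.15), and the NASH level 28.7-fold below it (13.7 to 72.5). Its share of the pool was 1.38% in NASH (0.555 to 2.81), against 5.36% in wild-type (4.62 to 6.18), so Cyp2c29 was low in NASH also in relation to other P450 RNAs. Cyp2c50, Cyp2c54 and Cyp2c37 make epoxides of fatty acids. Cyp2c50 stood at 318 CPM in ob, 34.9 in NASH, 950 in db and 246 in wild-type, Cyp2c54 at 101, 14.4, 453 and 107, and Cyp2c37 at 62.4, 6.15, 308 and 69.5. All 3 were between 0.898 and 1.29 of wild-type in ob and between 3.87-fold and 4.43-fold above it in db.

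Cyp2c40, Cyp2c67, Cyp2c68 and Cyp2c69 form a group of near-identical copies, 96.5% to 98.1% identical in their coding sequences, and counts can move between them. Their levels were 50.5 CPM in ob, 2.05 in NASH, 151 in db and 18.5 in wild-type for Cyp2c40, and 55.1, 4.1, 256 and 51 CPM for Cyp2c67. Cyp2c68 stood at 76.4, 12.3, 265 and 69.5 CPM, and Cyp2c69 at 25.9, 2.05, 81.4 and 16.2 CPM. All 4 were highest in db and lowest in NASH. In db they were between 3.81-fold (Cyp2c68, 2.61 to 5.76) and 8.12-fold (Cyp2c40, 4.02 to 19.1) above wild-type. In ob, Cyp2c40 was 2.72-fold higher (1.31 to 6.53), and the intervals of the other 3 included 1.

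Cyp2c70 (ENSMUSG00000060613, 40153353 to 40187333, minus strand), which makes the muricholic acids of mouse bile, did not follow its neighbours. It stood at 79.7 CPM in ob, 28.7 in NASH, 193 in db and 243 in wild-type, so that wild-type was the highest library, ahead of db by less than the scaling can settle. Relative to wild-type it was 3.05-fold lower in ob (2.33 to 4), 8.48-fold lower in NASH (4.83 to 16), and in db its ratio was 0.794 (0.624 to 1.01). Its share of the pool was 0.855% in ob (0.71 to 1.02) and 0.936% in db (0.813 to 1.07), against 3.16% in wild-type (2.59 to 3.82), while the NASH share of 2.75% (1.51 to 4.57) overlapped that of wild-type. No stretch of 50 bases of its transcript occurred in a transcript of another gene, though its expected counts had fractions (119.76 in ob). Cyp2c44, an arachidonic acid epoxygenase that also lies apart from the others, stood at 85.7 CPM in ob, 12.3 in NASH, 154 in db and 121 in wild-type. Its ratio to wild-type was 0.711 in ob (0.511 to 1; 1.56 under plain totals), 0.102 in NASH (0.0358 to 0.238) and 1.28 in db (0.932 to 1.78). Cyp2c39 reached 11 counts in db and had 1 in ob, 1 in NASH and 0 in wild-type.

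The Cyp2d genes of chromosome 15 were lower in NASH and, for 4 of the 6 with at least 30 counts, more than 3-fold higher in db. Cyp2d26 stood at 365 CPM in ob, 45.1 in NASH, 999 in db and 211 in wild-type, and Cyp2d10 at 338, 26.7, 865 and 278 CPM. In db they were 4.74-fold (3.82 to 5.93) and 3.11-fold (2.57 to 3.8) above wild-type. Cyp2d9 (ENSMUSG00000068086, 82452377 to 82456827, plus strand), a testosterone hydroxylase known to be higher in male than in female mouse liver, stood at 264 CPM in ob, 10.3 in NASH, 1002 in db and 410 in wild-type. It was 2.44-fold higher in db (2.08 to 2.88) and 40-fold lower in NASH (16.8 to 125). In ob it stood at 0.643 of wild-type (0.537 to 0.772), and above wild-type under plain totals. Its share of the pool was 2.83% in ob (2.56 to 3.12) and 0.982% in NASH (0.32 to 2.28), below the 5.33% of wild-type (4.59 to 6.15), whereas 4.86% in db (4.58 to 5.15) overlapped it. Cyp2d22 stood at 145 CPM in ob, 10.3 in NASH, 199 in db and 64.9 in wild-type, and its share of the pool was 1.55% in ob (1.36 to 1.77), against 0.843% in wild-type (0.561 to 1.22). Cyp2d40 and Cyp2d11 were scarce, with 28, 1, 52 and 3 counts for Cyp2d40 and 57, 2, 81 and 17 counts for Cyp2d11 in ob, NASH, db and wild-type. Cyp2d12 had 3, 0, 15 and 4 counts.

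Cyp2e1 and Cyp2f2 are single genes of their subfamilies and, next to Cyp3a11, the most abundant P450 RNAs of the wild-type library. Cyp2e1 (ENSMUSG00000025479, chromosome 7, 140763739 to 140774975, plus strand) oxidises ethanol, acetone and acetaminophen and is found around the central vein. It stood at 917 CPM in ob, 115 in NASH, 3565 in db and 1191 in wild-type. Relative to wild-type it was 2.99-fold higher in db (2.73 to 3.29) and 10.4-fold lower in NASH (7.86 to 13.9), and 3.89-fold higher in db than in ob (3.66 to 4.14). In ob its ratio was 0.769 (0.695 to 0.853), but 1.69 under plain totals. The share of the pool, which needs no scaling, was 9.84% in ob (9.35 to 10.3), 17.3% in db (16.8 to 17.8) and 15.5% in wild-type (14.3 to 16.8).

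Cyp2f2 (ENSMUSG00000052974, chromosome 7, 27119909 to 27133660, plus strand) activates naphthalene and, in liver, marks periportal hepatocytes. It had 1285 counts in ob, 17 in NASH, 1264 in db and 467 in wild-type, or 853, 34.9, 1197 and 1082 CPM. It was thus near wild-type in db and ob and 31.1-fold lower in NASH (19.2 to 53.8). Its ratio was 1.11 in db (0.993 to 1.23) and 0.789 in ob (0.709 to 0.878), and both crossed 1 under another scaling. Its share of the pool was smaller than the wild-type share of 14.1% in all 3 models. No stretch of 50 bases of Cyp2f2 was shared with another gene.

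The Cyp2j genes of chromosome 4 convert arachidonic acid to epoxides. Cyp2j5, the liver and kidney member, stood at 183 CPM in ob, 4.1 in NASH, 421 in db and 167 in wild-type, and Cyp2j6 at 45.8, 2.05, 64.4 and 23.2 CPM. Cyp2j5 was 40.7-fold lower in NASH (10.9 to 342), on 2 counts against 72, and 2.52-fold higher in db (1.96 to 3.29). In ob its ratio of 1.09 (0.842 to 1.44) did not differ from 1 beyond counting error. Cyp2j6 was 2.78-fold higher in db (1.42 to 6.05).

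Cyp3a11 was the most abundant member in each library by counts. Cyp3a11 (ENSMUSG00000056035, chromosome 5, 145854426 to 145879964, minus strand) is the main mouse counterpart of the human drug-metabolising enzyme CYP3A4 and a target of the pregnane X receptor. It had 3473 counts in ob, 207 in NASH, 4359 in db and 830 in wild-type, or 2307, 424, 4127 and 1924 CPM. The order was db, ob, wild-type and NASH. Relative to wild-type it was 1.2-fold higher in ob (1.11 to 1.29), 4.53-fold lower in NASH (3.89 to 5.3) and 2.15-fold higher in db (1.99 to 2.31). It made up 24.8% of the P450 pool in ob (24 to 25.5), 40.7% in NASH (36.4 to 45.1), 20% in db (19.5 to 20.5) and 25% in wild-type (23.5 to 26.5).

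The other Cyp3a genes did not share 1 pattern. Cyp3a25 stood at 560 CPM in ob, 22.6 in NASH, 499 in db and 206 in wild-type, and its close copy Cyp3a59 at 118, 14.4, 196 and 32.4 CPM. Cyp3a25 was 2.71-fold higher in ob (2.18 to 3.42) and 2.42-fold higher in db (1.93 to 3.06), and 9.15-fold lower in NASH (4.87 to 19). Its share of the pool was 6.01% in ob (5.62 to 6.42), against 2.68% in wild-type (2.16 to 3.29), whereas the db share of 2.42% (2.22 to 2.63) overlapped that of wild-type. Cyp3a59 was 3.64-fold higher in ob (2.12 to 6.8) and 6.04-fold higher in db (3.52 to 11.2). Cyp3a13, which lies apart from the cluster and shares no stretch of 50 bases with another gene, stood at 86.3 CPM in ob, 12.3 in NASH, 267 in db and 48.7 in wild-type, and was 5.49-fold higher in db (3.52 to 9). Cyp3a44 and Cyp3a16, which are higher in female than in male mouse liver, were closer to wild-type in ob and db, and in NASH stood at 0.248 (0.0905 to 0.589) and 0.111 (0.00249 to 0.825) of it. Cyp3a44 stood at 42.5, 14.4, 95.6 and 57.9 CPM in ob, NASH, db and wild-type, and Cyp3a16 at 19.3, 2.05, 29.3 and 18.5 CPM. In ob the intervals of both included 1, and in db that of Cyp3a16 did too (1.58, 0.712 to 3.99). Cyp3a41a and Cyp3a41b, whose symbols end in a letter and so fall outside the rule, had 23 and 22 counts in ob, 2 and 2 in NASH, 21 and 21 in db and 5 and 5 in wild-type.

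Members that did not reach 10 counts in any library numbered 17, and 7 of them had no count at all. Among these 17 were Cyp2r1, a vitamin D hydroxylase, with 5 counts in ob and 0 in the other libraries, Cyp2s1, with 1, 1, 0 and 0 counts in ob, NASH, db and wild-type, and Cyp2w1, with 0 in all 4. Cyp2u1, a fatty acid hydroxylase, reached 14 counts in db and had 3 in ob, 0 in NASH and 6 in wild-type. A count of 0 allows up to the floor given above. Cyp2b9, Cyp2b13 and Cyp2c38 were not analysed here.

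Levels of different genes can be set against each other only per length of transcript. Per 1000 bases, Cyp3a11 led in ob with 984 CPM, in NASH with 181 and in wild-type with 821, whereas in db Cyp2e1 led with 1945 CPM and Cyp3a11 followed with 1760. Cyp2e1 followed in the other 3, with 500 CPM per 1000 bases in ob, 62.6 in NASH and 650 in wild-type. Next in line were Cyp2f2 with 457 CPM per 1000 bases in ob and 580 in wild-type, Cyp2a5 with 32.6 in NASH and Cyp2c29 with 979 in db. Cyp2a5 had 319 CPM per 1000 bases in ob, 32.6 in NASH, 512 in db and 33.4 in wild-type, so it ranked far higher among P450 RNAs in the models than in wild-type.

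The comparison of ob with wild-type asks how these RNAs stand with a leptin mutation. A minority of members differed by 2-fold, most of them upward, and the largest differences were those of Cyp2a4, Cyp2a5 and Cyp2b10. Of the 35 members past the filter (at least 10 counts in a library), 9 were at least 2-fold higher and 3 lower on the scale of log2(CPM + 1), against 34.5% higher and 15.5% lower of all 5347 features. The higher ones were Cyp2a4, Cyp2a5, Cyp2a22, Cyp2b10, Cyp2c40, Cyp2d22, Cyp2d40, Cyp3a25 and Cyp3a59, and the lower ones Cyp2c70, Cyp2d12 and Cyp2u1. Of these, 8 higher and 2 lower also had an interval that excluded equality. The median log2 difference of the members was 0.28, and that of all features 0.41. The members' higher share of 25.7% was below that of all features, and near the 22.7% of the 3220 features with at least 10 counts in NASH or db, of which 21.6% were lower and whose median was -0.01. All 35 members passed that filter. Under plain totals 24 were higher and 1 lower, while 61.6% of all features were higher. Nuclear RNAs moved with this comparison, with a list led by Neat1 and Malat1 39.7-fold higher in ob (32.7 to 48.7) and erythroid genes 12.4-fold higher (8.87 to 18), and their part in the result was not tested.

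The comparison of NASH with wild-type asks the same of steatohepatitis. P450 RNAs were lower nearly throughout, from Cyp1a2 at 0.268 and Cyp3a11 at 0.221 of wild-type to Cyp2c29 at 0.0348, Cyp2f2 at 0.0322, Cyp2d9 at 0.025 and Cyp2j5 at 0.0246. Of 35 members 32 were lower by 2-fold or more and 1 was higher, against 31.8% lower and 20.3% higher of all features. The 1 higher member was Cyp2c39, with 1 count against 0, and the intervals of 27 lower members excluded equality. The exceptions were Cyp2a5, and Cyp2a4 with 1 count against 2, which lies under the floor and is too few to compare. The median log2 difference was -2.78 for members and -0.14 for all features, and over 5 scalings the difference of the medians lay between -2.88 and -2.52. Of 9 hepatocyte markers past the filter, 8 were at least 2-fold lower in NASH and 0 higher, with a summed ratio of 0.116 (0.112 to 0.12). Markers of some other cells were higher in NASH, and those of others were not. Of 13 macrophage markers past the filter, 10 were at least 2-fold higher and 0 lower, with a summed level of 1739 CPM in NASH against 415 in wild-type, 4.19-fold higher (3.56 to 4.95). Of 7 stellate and fibroblast markers past the filter 4 were higher and 1 lower, with 623 CPM in NASH against 301 in wild-type over the whole list of 10 (2.07-fold, 1.68 to 2.56). Of 6 cholangiocyte markers 4 were at 0 in every library and only Spp1 passed the filter, with 16 counts in NASH and 3 in wild-type. Endothelial markers had a ratio of 0.825 (0.561 to 1.21), and erythroid genes stood at 0.208 of wild-type (0.0832 to 0.458), with 3 of 3 lower. The part of these cells in the lower P450 levels was not tested.

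The comparison of db with wild-type asks how these RNAs stand with a leptin receptor mutation. The db genotype label also names a BKS background, and background and mutation cannot be told apart here. Most members were higher and none was 2-fold lower. Of 35 members 26 were at least 2-fold higher and 0 lower, against 28.8% higher and 21.5% lower of all features, and the intervals of all 26 excluded equality. The 9 members that were neither were Cyp1a2, Cyp2c44, Cyp2c70, Cyp2d11, Cyp2d12, Cyp2f2, Cyp2u1, Cyp3a16 and Cyp3a44. The median log2 difference was 1.63 for members and 0.11 for all features. Since a member can pass the filter through db alone, the 32 members with at least 10 counts in ob or NASH were counted as well, and 25 of them were higher and 0 lower, against 27.5% and 21.7% of 4919 features chosen the same way. Hepatocyte markers had a summed ratio of 2.25 in db (2.22 to 2.29), with 4 of 9 higher by 2-fold or more and 0 lower. Endothelial markers were 2.18-fold higher in db (1.65 to 2.93), macrophage markers 1.49-fold (1.27 to 1.77), and stellate and fibroblast markers had a ratio of 1.13 (0.923 to 1.39). Erythroid genes stood at 0.3 of wild-type (0.172 to 0.518). Their part in the result was not tested.

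The libraries db and ob, from the leptin receptor and leptin models, also differed from each other. The BKS background named by the db genotype label cannot be told apart from the mutations in this comparison either. Of 35 members 21 were at least 2-fold higher in db than in ob and 0 lower, against 19.6% higher and 30.2% lower of all features, with a median log2 difference of 1.21 for members and -0.17 for all features. Among the 25 members with at least 10 counts in NASH or wild-type, 15 were higher and 0 lower, against 29.5% and 10.9% of 1864 features chosen likewise. The members with the largest ratios on at least 30 counts were Cyp2c37 at 4.93 (3.91 to 6.27), Cyp2c67 at 4.64 (3.61 to 6), Cyp2c54 at 4.49 (3.74 to 5.43), Cyp2e1 at 3.89 (3.66 to 4.14) and Cyp2d9 at 3.8 (3.38 to 4.27). Cyp2a4 and Cyp3a25 were the members with ratios under 1, at 0.864 (0.707 to 1.05) and 0.891 (0.798 to 0.995), and DESeq2 size factors took both above 1. Under plain totals 13 members were higher and 0 lower. Other RNAs differed between these libraries too. The nuclear RNAs stood at 0.0384 of their ob level in db and erythroid genes at 0.0241 (0.0156 to 0.0358). The secreted hepatocyte RNAs were 3.38-fold higher in db (3.35 to 3.4), with 21 of 25 higher by 2-fold or more, a larger ratio than the 2.21 of the members. The part of these differences in the result was not tested.

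Members were also grouped by where and how their genes are known to be used. The 8 members found mainly around the central vein (Cyp1a2, Cyp2a5, Cyp2c29, Cyp2c37, Cyp2c50, Cyp2c54, Cyp2e1 and Cyp3a11) summed to 5239 CPM in ob, 730 in NASH, 12414 in db and 4223 in wild-type. In NASH their summed level was 0.173 of wild-type (0.154 to 0.194), while the periportal member Cyp2f2 was at 0.0322. In db it was 2.94-fold higher (2.8 to 3.09), with 7 of 8 higher by 2-fold or more, against 1.11 for Cyp2f2. The exception, Cyp1a2, had a ratio of 1.14 in db, near that of Cyp2f2. Over all features 28.8% were higher in db, and over the 35 members past the filter 74.3%. The count of 7 of 8 is thus not particular to this group. Among genes that are no P450, 13 pericentral ones, 10 of them past the filter, had a summed ratio of 0.574 in NASH (0.454 to 0.724) and 3.04 in db (2.61 to 3.56). The 9 periportal ones, 8 of them past the filter, had 0.643 in NASH (0.512 to 0.804) and 6.86 in db (5.92 to 7.98), much of it Apoa4, an apolipoprotein gene with 1430 counts in db and 8 in wild-type.

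Members known to be higher in female than in male mouse liver (Cyp2a4, Cyp2c40, Cyp2c69, Cyp3a16 and Cyp3a44) had 477 counts in ob, 11 in NASH, 540 in db and 50 in wild-type. Their sum was 2.73-fold higher in ob (2.04 to 3.74) and 4.41-fold higher in db (3.3 to 6.02), and 0.195 of wild-type in NASH (0.0914 to 0.379). Cyp2a4 alone gave 269 of the 477 counts in ob. Cyp2d9, the male-biased member, had a ratio of 2.44 in db, and in ob one of 0.643 that became 1.41 under plain totals. The sex of the mice is not labelled. The Y-linked gene Ddx3y had 27 counts in ob, 11 in NASH, 14 in db and 3 in wild-type, and Xist, the RNA of the inactive X chromosome, had 0, 0, 0 and 1.

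Members induced through the constitutive androstane or pregnane X receptor (Cyp2b10, Cyp2c29, Cyp3a11, Cyp3a13 and Cyp3a25, and Cyp2c55 below the filter) summed to 3739 CPM in ob, 476 in NASH, 6691 in db and 2596 in wild-type. Of the 5 past the filter, a difference of 2-fold or more was seen for 2 in ob (upward), for 5 in NASH (downward) and for 5 in db (upward). The shares over all features were 34.5% upward in ob, 31.8% downward in NASH and 28.8% upward in db. Over all 35 members past the filter they were 25.7%, 91.4% and 74.3%, so the NASH and db counts are not particular to this group. Of members induced through the aryl hydrocarbon receptor only Cyp1a2 passed the filter. The receptors themselves were scarce. Nr1i3, the gene of the constitutive androstane receptor, had 66 counts in ob, 0 in NASH, 5 in db and 0 in wild-type, and Hnf4a had 57, 3, 40 and 3. Cebpa, another hepatocyte regulator, had 23, 14, 19 and 3. Of the sensors and regulators 7 passed the filter. By 2-fold or more, 5 of these were higher and 0 lower in ob, 2 higher and 0 lower in NASH, and 5 higher and 1 lower in db. Higher features made up 34.5% of all in ob, 20.3% in NASH and 28.8% in db.

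Of the electron donors and other partners of the P450s, Por differed from wild-type most in db and Pgrmc1 most in NASH. Por, the NADPH-cytochrome P450 reductase, had 169 counts in ob, 12 in NASH, 757 in db and 16 in wild-type. It was 19.3-fold higher in db than in wild-type (11.8 to 34) and 3.03-fold higher in ob (1.81 to 5.42), and in NASH its ratio of 0.663 (0.286 to 1.49) did not differ from 1 beyond counting error. Pgrmc1, a heme-binding partner of P450s, had 492 counts in ob, 15 in NASH, 693 in db and 105 in wild-type, with ratios of 1.34 in ob (1.09 to 1.67), 0.126 in NASH (0.0683 to 0.218) and 2.7 in db (2.19 to 3.34). Cyb5b, the cytochrome b5 of the outer mitochondrial membrane, had 67, 19, 61 and 16 counts, and its intervals included 1 in all 3 models. Of the 5 partners past the filter, db held 2 at a higher level by at least 2-fold and 1 at a lower one, ob 2 and 0, and NASH 0 and 2. The same scarce gene, with 12 counts in ob, 0 in NASH, 2 in db and 1 in wild-type, was among those higher in ob and those lower in NASH. That gene passed the filter through ob alone and lay under the floor in both NASH and wild-type. Among all features the shares higher and lower were 28.8% and 21.5% in db, 34.5% and 15.5% in ob, and 20.3% and 31.8% in NASH.

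As a sum, genes of heme metabolism did not move as the members did in NASH and db. The summed ratio to wild-type was 0.916 in ob (0.64 to 1.33), 1.77 in NASH (1.2 to 2.64) and 1.01 in db (0.693 to 1.48). Over 5 scalings the db ratio lay between 0.905 and 1.54. The sum mixes genes that make heme with genes that break it down. Alas1, which makes the first heme precursor, had 31 counts in ob, 19 in NASH, 33 in db and 5 in wild-type. It was 3.36-fold higher in NASH (1.21 to 11.5) and 2.7-fold higher in db (1.05 to 8.85). Hmox1, the heme oxygenase that degrades heme, had 3 counts in ob, 42 in NASH, 10 in db and 17 in wild-type. It was 2.19-fold higher in NASH (1.22 to 4.09), 19.8-fold lower in ob (5.72 to 105) and 4.16-fold lower in db (1.8 to 10.2). Of 7 genes past the filter, 3 were higher and 1 lower in ob, 2 higher and 1 lower in NASH, and 3 higher and 1 lower in db. All features had 34.5% higher and 15.5% lower in ob, 20.3% and 31.8% in NASH, and 28.8% and 21.5% in db. Several of the 7 had few counts, so no reading is drawn from these numbers.

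Beside other hepatocyte RNAs, families 1 to 3 were not the only ones to differ. For the counts below, the shares of all features higher and lower were 34.5% and 15.5% in ob. They were 20.3% and 31.8% in NASH, and 28.8% and 21.5% in db. Of 20 genes of other P450 families past the filter, those past 2-fold numbered 8 upward and 2 downward in ob, 1 upward and 17 downward in NASH, and 15 upward and 1 downward in db. Their summed ratio to wild-type was 1.63 in ob (1.49 to 1.78), 0.115 in NASH (0.0887 to 0.146) and 6.57 in db (6.04 to 7.16). Cyp4a14, a fatty acid hydroxylase with 1419 counts in ob, 18 in NASH, 4611 in db and 49 in wild-type, took a large part of the db sum. Other enzymes of drug metabolism past the filter numbered 40, of which 8 were higher and 4 lower in ob, 4 higher and 23 lower in NASH, and 12 higher and 3 lower in db, with summed ratios of 0.821 in ob (0.792 to 0.852), 0.128 in NASH (0.117 to 0.14) and 1.41 in db (1.36 to 1.46). Mgst1, the microsomal glutathione transferase and the most abundant of them, had ratios of 1.87 in ob (1.66 to 2.13), 0.072 in NASH (0.0454 to 0.109) and 3.13 in db (2.77 to 3.54). RNAs of 25 secreted hepatocyte proteins, which are made on the endoplasmic reticulum, had summed ratios of 0.71 in ob (0.702 to 0.719), 0.124 in NASH (0.12 to 0.127) and 2.4 in db (2.37 to 2.43), with 1 higher and 7 lower in ob, 0 higher and 25 lower in NASH, and 13 higher and 0 lower in db. For each count of this list there were 0.163 P450 counts in ob, 0.105 in NASH, 0.107 in db and 0.0958 in wild-type. Measured against secreted-protein RNAs, P450 RNA was therefore highest in ob, and NASH, db and wild-type lay close together. The ob ratios of the drug-metabolism and secreted lists turned to 1.8 and 1.56 under plain totals.

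**Figure D5:**
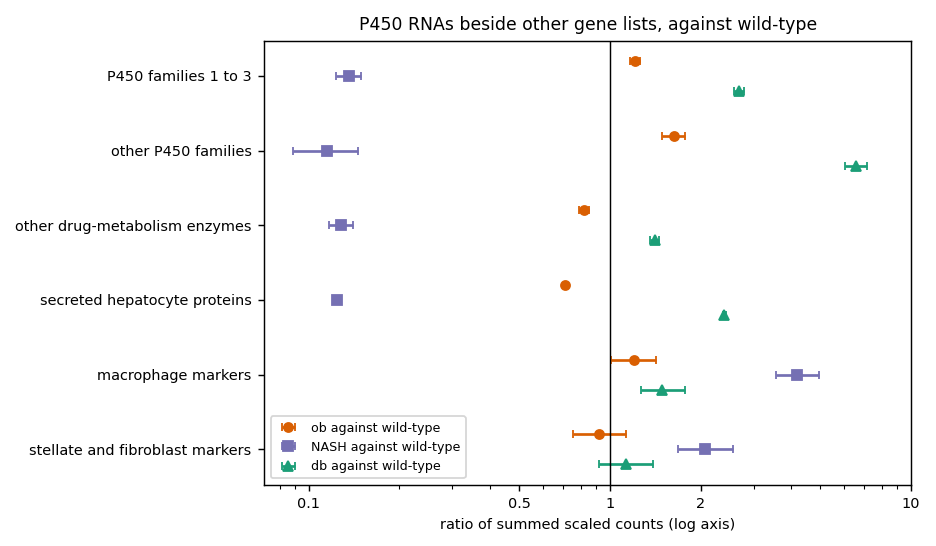
Ratio of summed scaled counts to wild-type (log axis) for P450 families 1 to 3 and 5 other gene lists in ob, NASH and db, with bars for exact 95% intervals for counting error, some smaller than the symbols. In NASH the 4 hepatocyte lists lie between 0.115 and 0.136, while macrophage and stellate markers lie above 1.

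How far reads could be shared was measured on the GENCODE M21 transcripts, of which 1 was taken per member. Among the 35 members past the filter, 3 had at least 50% of their stretches of 50 bases in common with a transcript of another gene, namely Cyp2c40 (72.1%), Cyp2c69 (54.8%) and Cyp2c67 (52.8%). Cyp2a5 shared 40.8% and Cyp2a4 38%, Cyp3a11 14.8%, Cyp2e1 4.76% and Cyp2c29 2.08%. The 4 that shared none were Cyp2c44, Cyp2c70, Cyp2f2 and Cyp3a13. For these 4, the ratio to wild-type was between 0.0322 and 0.253 in NASH. In db their ratios ranged from 0.794 for Cyp2c70 to 5.49 for Cyp3a13. Their expected counts in ob still had fractions (129.17 for Cyp2c44, 119.76 for Cyp2c70, 1284.59 for Cyp2f2 and 130.11 for Cyp3a13). The part of shared reads in the results was not tested.

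Promoters of the members past the filter were searched on both strands for 4 motifs, none of which overlaps another in its letters. RefSeq promoters were found for 30 of them, 32 promoters in all, and the window was the 250 bases before the start. TATAAA, at any place in the window, occurred in 18 of 32, against 12.4% of 32851 promoters of all genes, and CAAAGTCCA in 7 of 32, against 0.384%. The 7 were those of Cyp2c40, Cyp2c67, Cyp2c68, Cyp2c69, Cyp2c70, Cyp3a11 and Cyp3a16, several of which are copies of each other and so not separate cases. TTCNNNGAA, the core bound by STAT factors, occurred in 0 of 32, against 7.02%, and CACGTG, the E-box, in 1 of 32 (Cyp2j6), against 6.02%. Cyp2c70, which was lower in ob, and Cyp2c40, which was higher, both held CAAAGTCCA in this window.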

How the data were processed

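Total RNA from liver mitochondria of 4 libraries, 1 per group, was prepared with rRNA depletion and a stranded kit, per the labels' protocols. The submitters' processing notes name bcl2fastq 2.20, Trimmomatic 0.32, TopHat2 2.1.1 and Bowtie2 2.3.2 with mm10. The counting program, its gene models and its handling of strand and of reads with several matches are not stated in these sources. The values used are the authors' expected counts per gene, deposited as raw read counts, and their fractions were rounded to whole numbers. Of the members with a count, 15% in ob, 47.2% in NASH, 19.5% in db and 38.9% in wild-type had a value within 0.01 of a whole number. The deposited log2 values, normalized by TMM per the file headers, differed from log2 counts by a constant per library (-0.87 in ob, 0.61 in NASH, -0.23 in db and 0.56 in wild-type) and served as another scaling.

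Features with at least 10 counts in a library were kept (5347 of 37819), scaled by TMM (edgeR 4.0.16, R 4.3.3) and compared as differences of log2(CPM + 1), called at 2-fold, with no test. TMM factors were 1.51 in ob, 0.921 in NASH, 1.05 in db and 0.687 in wild-type. Ratios are of scaled counts, with exact binomial 95% intervals, and exact Clopper-Pearson intervals go with shares. PCR duplicates are not independent molecules, and the intervals leave out everything but counting error. The 2-fold call and the intervals were tested on simulated counts of ob and wild-type, with known changes in well-counted genes. The scaling, scarce members, the NASH comparison and the splitting of reads were not part of that test. DESeq2 1.42.0 gave other size factors. The rest used Python 3.11.15, numpy 2.4.6, pandas 2.3.3, scipy 1.17.1, Biopython 1.88 and matplotlib 3.10.9. Members with at least 30 counts in a library were named, and of a subfamily with none, the one with most counts, plus up to 3 genes per other list with most counts. The member rule reads symbols only, but the gene families, the lists and the rules were chosen with earlier results of these data known.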

Additional observations from a re-analysis of the deposited data

How the results depend on the processing

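The largest dependence was on scaling. Under plain library totals, 24 members were higher and 1 lower in ob than in wild-type, and 13 were higher in db than in ob, in place of 9, 3 and 21. The summed ratio of ob to wild-type (1.21) was 2.65 under plain totals, 1.57 under the submitters' scaling, 1.11 with DESeq2 size factors and 1.08 with TMM without the 16 most abundant features. The ratio of NASH to wild-type (0.136) was 0.182, 0.158, 0.163 and 0.169 under the same 4 settings, and that of db to wild-type (2.68) was 4.1, 3.8, 2.95 and 2.41. The ratio of db to ob (2.21) was 1.54, 2.42 and 2.66 under the first 3. Without Cyp3a11 the ratios were 0.107 in NASH, 2.86 in db and 2.35 for db to ob. With no filter, 4 members were higher in NASH, and 1 was lower in db than in wild-type and 1 than in ob, all on few counts. With a pseudocount of 5, or with counts under 3 set to 3, 0 were higher in NASH. The summed ratio of all members kept its direction in each of the 4 comparisons under the alternatives run, while the ob ratios of Cyp1a, Cyp2e and Cyp2f and of the drug-metabolism and secreted lists turned above 1 under plain totals, and the number of members called lower in NASH stayed between 29 and 33. The other 50 summary values moved little. Single ratios near 1 turned with scaling for 16 of 43 members and subfamilies in ob, 1 of 40 in NASH, 4 of 43 in db and 6 of 43 between db and ob. No paired analysis was possible because each group has 1 library. At the NASH depth, 3 counts are 6.15 CPM, so differences among scarce members were not detectable there.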
